A study of Mus musculus with 8 samples.

Results

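The genes described here are 10 transcripts of brain endothelial cells and of the blood-brain barrier: Cldn5, Esam, Slc2a1, Slco1c1, Abcb1a, Flt1, Tek, Eng, Itm2a and Ly6c1. They were chosen by name and looked up by symbol among the genes past the study's read threshold, and 9 of the 10 were found there, among 10588 genes tested. Ly6c1 has no entry under its symbol, and no value is given for it. The 9 measured genes all reached a level of 10 RPM, relative to the total of a column, somewhere among the 8 mice, and 7 of them, all except Eng and Esam, did so in every mouse.

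Right cortex of 4 bigenic and 4 nontransgenic mice, all of strain C57BL/6 and 3 of each 4 male, was sequenced as poly(A)+ RNA. The bigenic mice have the genotype Camk2a-tTa / deltaNLS-hTDP-43. They carried a human TDP-43 whose nuclear localization signal is defective. Its expression requires the tetracycline transactivator tTA and is held off by doxycycline. The transactivator was driven by the Camk2a promoter, which is active in excitatory neurons of the forebrain and not in endothelial cells, so the vessels were not the labelled site of transgene expression. Both groups received doxycycline until 28 days of age, and the cortex was taken 10 days after its removal. The nontransgenic mice carried neither transgene, so the groups differ in the driver as well as in ΔNLS-hTDP-43.

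Endothelial cells of brain capillaries are joined by continuous tight junctions, which close the space between neighbouring cells to ions and solutes. Nutrients and hormones therefore cross through membrane transporters, while efflux pumps return many drugs and lipophilic compounds to the blood. Receptors for VEGF, the angiopoietins and ligands of the TGF-beta family set the growth and stability of these vessels, and Wnt ligands made by neurons and glia induce the barrier during development.

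Of the 9 genes, Slco1c1 and Flt1 were lower in bigenic mice, 0 were higher, and 7 did not pass the test. The test was limma on log2(normalized count + 1) with the Benjamini-Hochberg adjustment over all 10588 genes and a threshold of 0.05. At an unadjusted p below 0.05 the counts were also 2 lower and 0 higher. By the rule on adjusted p, 35.9% of all genes passed, 15.4% being lower and 20.5% higher in bigenic mice. The groups did not overlap for 2 of the 9 genes, against 39.0% of all genes. The median log2 difference (bigenic minus nontransgenic) of the 9 genes was -0.15, with 8 of 9 below 0, and that of all genes was 0.03, with 46.7% below 0. Endothelial cells are a small part of cortex, and in bulk tissue fewer endothelial cells and less RNA per cell cannot be told apart.

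The promoters of the 2 genes that passed are shown, since the remaining members did not separate the groups. They run from 250 bases before to 50 bases after the gene's start, 5′ to 3′ on the gene's own strand, and come from RefSeq on build GRCm38.p6, which is not the mm9 build of the expression values. Flt1 lies at chr5:147725962-147726261 on the minus strand and Slco1c1 at chr6:141524104-141524403 on the plus strand. Capitals mark matches on either strand to the letters AGGAAG, a core bound by ETS factors, which act widely in endothelial genes, or to TGACGTCA, the cyclic AMP response element.
Flt1 promoter: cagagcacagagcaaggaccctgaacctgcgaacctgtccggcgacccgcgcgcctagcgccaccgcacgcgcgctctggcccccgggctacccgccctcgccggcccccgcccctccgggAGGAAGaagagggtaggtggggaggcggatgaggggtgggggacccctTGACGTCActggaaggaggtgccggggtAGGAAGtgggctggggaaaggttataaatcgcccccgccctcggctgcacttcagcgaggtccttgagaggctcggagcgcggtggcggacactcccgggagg
Slco1c1 promoter: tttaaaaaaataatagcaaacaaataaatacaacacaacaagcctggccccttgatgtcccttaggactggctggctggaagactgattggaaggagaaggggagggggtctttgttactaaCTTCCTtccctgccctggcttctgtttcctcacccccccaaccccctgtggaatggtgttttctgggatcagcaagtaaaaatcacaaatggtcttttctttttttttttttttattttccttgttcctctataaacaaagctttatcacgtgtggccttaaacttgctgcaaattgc
The Flt1 promoter held ETS matches at -129 and -53 and a cyclic AMP response element at -81 relative to the gene's start, and the Slco1c1 promoter held 1 ETS match, at -128. Of 8 member promoters found in the table, 5 (Eng, Abcb1a, Flt1, Slco1c1 and Itm2a) held AGGAAG, against 35.4% of all 32851 promoters, and only that of Flt1 held TGACGTCA, against 1.79%. The 2 motifs do not overlap in the Flt1 promoter, and a match in the letters is a description of the sequence.

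Values in each mouse are given below as normalized counts, always in the order of bigenic mice 254, 277, 283 and 286 and nontransgenic mice 242, 250, 255 and 278, the numbers in the column headings. The number of exons beside a gene's position counts exon blocks merged over all its annotated transcripts. The column totals lay between 20.1 and 22.0 M. From the steps between whole numbers, bigenic mice were estimated to hold 10.6 to 31.9 M reads on genes and nontransgenic mice 20.5 to 29.0 M. Bigenic mouse 277 was the shallowest. The members' values rest on about 94 to 3042 reads in a mouse, so counting error alone was 1.8% to 10.3%. Mouse Tardbp, the gene of the animals' own TDP-43, was named after its values were seen. It averaged 5180.0 ± 248.6 normalized counts in bigenic and 6537.5 ± 419.7 in nontransgenic mice. Any read of the human transgene that matches it would be counted there.

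**Figure D1:**
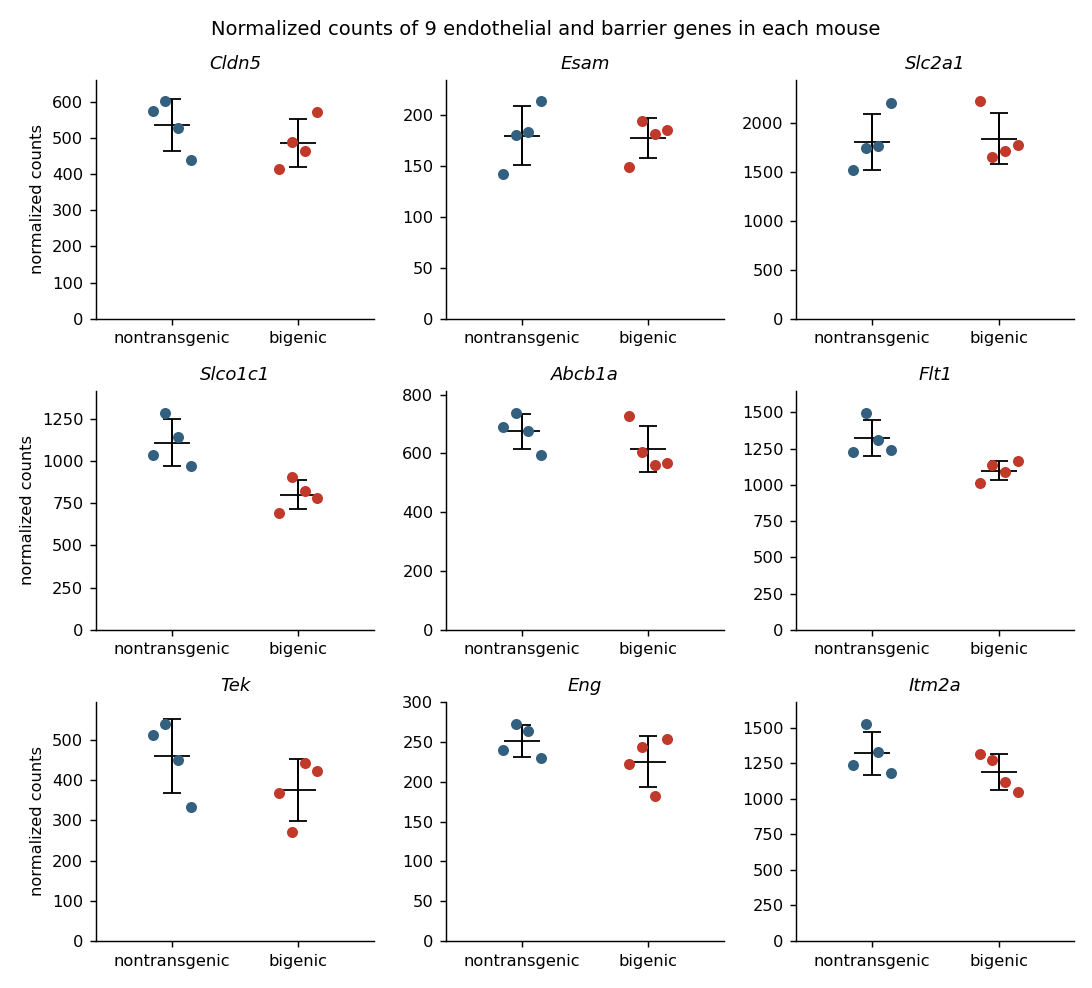
Normalized counts of the 9 measured genes, with 1 panel per gene, 1 point per mouse and a bar at the mean with its SD (n = 4 mice per group); each vertical axis starts at 0. The bigenic points lie below all nontransgenic points for Slco1c1 and Flt1, and the groups overlap in the other 7 panels.

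Both junction genes differed by less than the spread between mice. Cldn5 encodes claudin-5, the main claudin of brain endothelial tight junctions (mm9 chr16:18776940-18778353, plus strand, a single exon). Its normalized counts were 415, 490, 464 and 574 in bigenic and 576, 602, 529 and 440 in nontransgenic animals. The ranges overlapped, since bigenic mouse 286 was above 2 nontransgenic mice and nontransgenic mouse 278 was below 3 bigenic mice. The means were 485.8 ± 66.5 and 536.8 ± 71.2 (SD, n = 4), a log2 difference of -0.14 (SE 0.13, 95% confidence interval -0.43 to 0.14) with a limma adjusted p of 0.404.

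Esam, an immunoglobulin-family adhesion molecule of endothelial junctions, had the smallest difference of the 9 genes (chr9:37335663-37345904, plus strand, 10 exons). It was counted at 149, 194, 181 and 185 in bigenic and at 142, 180, 183 and 213 in nontransgenic mice. It reached 10 RPM only in nontransgenic mouse 278, its highest. The bigenic values fell entirely within the nontransgenic range. Their means of 177.2 ± 19.6 and 179.5 ± 29.1 differed by -0.01 on the log2 scale (SE 0.15, interval -0.35 to 0.33, limma adjusted p 0.963).

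Among the partners of these genes 1 passed. Ocln, which encodes occludin, a second membrane protein of the tight junction, was lower in bigenic mice (178, 130, 181 and 163 against 224, 247, 233 and 194), with a log2 difference of -0.47 (SE 0.14) and a limma adjusted p of 0.029. That call was lost without bigenic mouse 286 or without nontransgenic mouse 242, 250 or 255, with adjusted p up to 0.0918. Ocln reached 10 RPM in nontransgenic mice only, so it entered the test through the group where it was higher. Tjp1, the ZO-1 scaffold protein that anchors claudins to actin, differed by -0.02 (interval -0.18 to 0.14). The endothelial adhesion molecules Pecam1 and Cdh5 differed by -0.13 (interval -0.33 to 0.06) and -0.20 (interval -0.48 to 0.07) and did not pass the test.

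Slc2a1 encodes GLUT1, the glucose transporter of the barrier, which astrocytes also express (chr4:118781316-118809935, plus strand, 12 exons). Its normalized counts of 2223, 1654, 1719 and 1779 in bigenic and 1523, 1747, 1771 and 2207 in nontransgenic mice covered nearly the same range. In each group 1 mouse stood above the other 3, bigenic mouse 254 and nontransgenic mouse 278. The means were 1843.8 ± 257.9 and 1812.0 ± 286.0, a log2 difference of 0.03 (SE 0.13, interval -0.26 to 0.32, limma adjusted p 0.88). On the opposite strand Gm12868 overlaps 3.7% of its exon bases.

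Slco1c1 showed the clearest difference of the 9 genes. It encodes the organic anion transporter OATP1C1, which carries the thyroid hormone thyroxine across brain capillaries and is also made by astrocytes and choroid plexus (chr6:141472907-141518241, plus strand, 15 exons). The bigenic mice had 694, 904, 820 and 783 normalized counts and the nontransgenic mice 1033, 1287, 1141 and 970. Every bigenic mouse was below every nontransgenic mouse, the closest pair being bigenic mouse 277 and nontransgenic mouse 278. The mean fell from 1107.8 ± 138.8 to 800.2 ± 87.1, a log2 difference of -0.47 (SE 0.11, interval -0.72 to -0.22, limma adjusted p 0.00995). On the linear scale the level fell by 27.6% (interval -39.1% to -14.0%), and the gene passed in all 8 fits with 1 mouse left out, with adjusted p between 0.00174 and 0.0342.

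Slco2b1, a related organic anion transporter named after its values were seen, differed by -0.63 (SE 0.10, limma adjusted p 0.00132), with 232 to 290 counts in bigenic and 391 to 444 in nontransgenic mice. Slco1c1 and Slco2b1 each passed in all 8 fits with 1 mouse left out. Slco1a4, a further family member at the barrier, also named after its values were seen, differed by -0.18 (interval -0.49 to 0.13) and did not pass.

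Other nutrient carriers rose or stayed close to the nontransgenic level. Slc7a5, the LAT1 carrier for large neutral amino acids and thyroid hormones, was higher in bigenic mice (1307, 1156, 1109 and 1270 against 849, 928, 919 and 970). The groups did not overlap, and the log2 difference was 0.40 (SE 0.08, limma adjusted p 0.00477). Slc3a2, the heavy chain with which LAT1 pairs, was named after its values were seen and differed by 0.47 (SE 0.12, limma adjusted p 0.0122). Slc16a1, the lactate and ketone carrier MCT1, differed by -0.02 (interval -0.25 to 0.20). Bulk cortex does not resolve which cells the counts of these carriers came from, and this was not tested.

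Abcb1a encodes P-glycoprotein, the efflux pump that keeps many drugs out of the brain (chr5:8660077-8748575, plus strand, 28 exons). It was counted at 726, 606, 559 and 568 in bigenic and at 689, 739, 676 and 595 in nontransgenic mice. Bigenic mouse 254 lay near the top of the nontransgenic range, and the other 3 bigenic mice lay near or below its lower end. The means of 614.8 ± 76.9 and 674.8 ± 59.7 gave a log2 difference of -0.14 (SE 0.11, interval -0.38 to 0.10, limma adjusted p 0.335). Only 79.8% of its exonic windows of 50 bases occur once in the genome, since it has a close copy, Abcb1b, which was not among the genes tested, so its value is less certain than that of the other members. Abcg2, the second main efflux pump, differed by 0.09 (interval -0.25 to 0.44).

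Flt1 was the other member that passed. It encodes VEGF receptor 1, which binds VEGF-A tightly and signals weakly, and whose soluble form acts as a decoy (chr5:148373180-148537587, minus strand, 33 exons). Its normalized counts were 1011, 1135, 1086 and 1164 in bigenic and 1228, 1499, 1313 and 1244 in nontransgenic mice. All bigenic mice were below all nontransgenic mice, by a narrow margin between bigenic mouse 286 and nontransgenic mouse 242. The means were 1099.0 ± 66.9 and 1321.0 ± 124.3, a log2 difference of -0.26 (SE 0.09, interval -0.46 to -0.07, limma adjusted p 0.0404). The level fell by 16.6% (interval -27.2% to -4.58%).

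The Flt1 call was close to the threshold and depended on single mice. Its adjusted p in limma was 0.0897 without bigenic mouse 254, 0.0777 without 283 and 0.052 without 286. Without nontransgenic mice 242, 250 and 255 it was 0.0528, 0.122 and 0.0905, so the call remained only without 277 (0.0197) or 278 (0.0483). The log2 difference stayed between -0.30 and -0.20 in these 8 fits. Values for the soluble and the membrane form were not analysed separately.

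The ligands and fellow receptors of Flt1 did not pass. Kdr, VEGF receptor 2, which carries most of the endothelial response to VEGF-A, had 478, 554, 349 and 463 counts in bigenic and 476, 472, 407 and 320 in nontransgenic mice. Its log2 difference was 0.14 (SE 0.17, interval -0.23 to 0.51), and the groups overlapped. The ligand genes Vegfa and Vegfb differed by -0.05 (interval -0.30 to 0.20) and 0.02 (interval -0.25 to 0.29), and the co-receptor gene Nrp1 by -0.07 (interval -0.32 to 0.17). The difference between the changes of Flt1 and Kdr was not tested. Of 8 genes listed for the VEGF axis 5 were tested, and 0 passed the limma test in either direction, also at an unadjusted p below 0.05.

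Tek, the angiopoietin receptor Tie2, varied most between mice of a group (chr4:94405980-94541667, plus strand, 23 exons). Its counts were 369, 271, 444 and 423 in bigenic and 513, 541, 451 and 334 in nontransgenic mice, a coefficient of variation of 20.5% and 20.0%. The lowest mouse of each group, 277 and 278, stood well under its group. The means were 376.8 ± 77.3 and 459.8 ± 91.9, a log2 difference of -0.29 (SE 0.19, interval -0.71 to 0.13, limma adjusted p 0.254), which is no smaller than that of Flt1 but has an SE of 0.19 against 0.09. Without mouse 277 the log2 difference was -0.14 (adjusted p 0.478), and without mouse 278 it was -0.43 (adjusted p 0.0834). With both left out, a setting chosen after seeing the data that removes the lowest value of each group and so narrows the spread by construction, it was -0.28 with an adjusted p of 0.0382.

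Among the partners of Tek, the sister receptor gene Tie1 differed by 0.01 (interval -0.39 to 0.41), and Ptprb, the phosphatase that holds Tie2 in check, by -0.07 (interval -0.36 to 0.23). The activating ligand gene Angpt1 had 190, 101, 155 and 133 counts in bigenic and 191, 250, 185 and 164 in nontransgenic mice. Bigenic mouse 254 lay within the nontransgenic range, and the log2 difference of -0.47 (SE 0.21) did not pass after adjustment (limma adjusted p 0.106). Angpt1 and Tie1 each reached 10 RPM only in nontransgenic mouse 250. Angpt2 was not among the genes tested. Of 5 angiopoietin axis genes 3 were tested and 0 passed the limma test, with 1 (Angpt1) at an unadjusted p below 0.05.

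Eng encodes endoglin, a co-receptor for BMP9 and TGF-beta on endothelial cells (chr2:32502115-32538189, plus strand, 15 exons). It was counted at 222, 244, 182 and 254 in bigenic and at 240, 273, 264 and 230 in nontransgenic mice. Bigenic mice 254 and 283 were below all nontransgenic mice, and 277 and 286 lay within their range. The means of 225.5 ± 31.9 and 251.8 ± 20.1 differed by -0.17 on the log2 scale (SE 0.13, interval -0.46 to 0.12, limma adjusted p 0.339). Exons of Ak1 and Fpgs overlap 4.8% of its exon bases.

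The receptors that work with endoglin had differences of like size. Acvrl1, the ALK1 receptor, differed by -0.20 (interval -0.46 to 0.05) and did not pass. Tgfbr2, the TGF-beta type II receptor, had 373, 333, 366 and 377 counts in bigenic and 451, 516, 412 and 405 in nontransgenic mice, with no overlap and a log2 difference of -0.29 (SE 0.10, limma adjusted p 0.0448). Its call was lost without any one of mice 254, 283, 286, 242, 250 and 255, with adjusted p up to 0.134.

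Itm2a encodes a membrane protein of the BRICHOS family that is abundant in brain vessels (X chromosome, chrX:104592438-104598715, minus strand, 6 exons). Its counts were 1312, 1276, 1117 and 1050 in bigenic and 1235, 1528, 1332 and 1182 in nontransgenic mice. Bigenic mice 254 and 277 lay inside the nontransgenic range, and 283 and 286 lay below it. The means were 1188.8 ± 125.4 and 1319.2 ± 152.4, a log2 difference of -0.15 (SE 0.11, interval -0.39 to 0.09, limma adjusted p 0.297). Its paralogues Itm2b and Itm2c, which are widely expressed in brain, differed by -0.17 (limma adjusted p 0.0973) and -0.04 (limma adjusted p 0.698).

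Ly6c1 encodes a GPI-anchored surface protein of capillary endothelium (chr15:74875447-74879260, minus strand, 4 exons). Of the 50-base windows in its exons 69.4% occur once in the genome, against 99.8% to 100% for the measured members other than Abcb1a. Reads from windows that occur more than once are dropped when unique mapping is required. Whether this left Ly6c1 without an entry was not tested. Its near copy Ly6c2 was not among the genes tested. The relatives Ly6a, an endothelial gene also known as Sca-1, and Ly6e were measured, and 87.2% of the windows of Ly6a occur once. Ly6a was counted at 153, 62, 133 and 105 in bigenic and at 137, 248, 229 and 183 in nontransgenic mice. Only bigenic mouse 254 reached the nontransgenic range, and the log2 difference was -0.85 (SE 0.29, limma adjusted p 0.0437). Ly6a reached 10 RPM in nontransgenic mice only, so it entered the test through the group where it was higher. Ly6e was at 1390, 1324, 1869 and 1710 against 2072, 2376, 2496 and 1836, with bigenic mouse 283 above nontransgenic mouse 278, a log2 difference of -0.48 (SE 0.14, limma adjusted p 0.0195). Leaving out 286, 250, 255 or 278 ended the Ly6a call (adjusted p up to 0.125), and leaving out 254, 250 or 255 ended the Ly6e call (up to 0.0637).

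**Figure D2:**
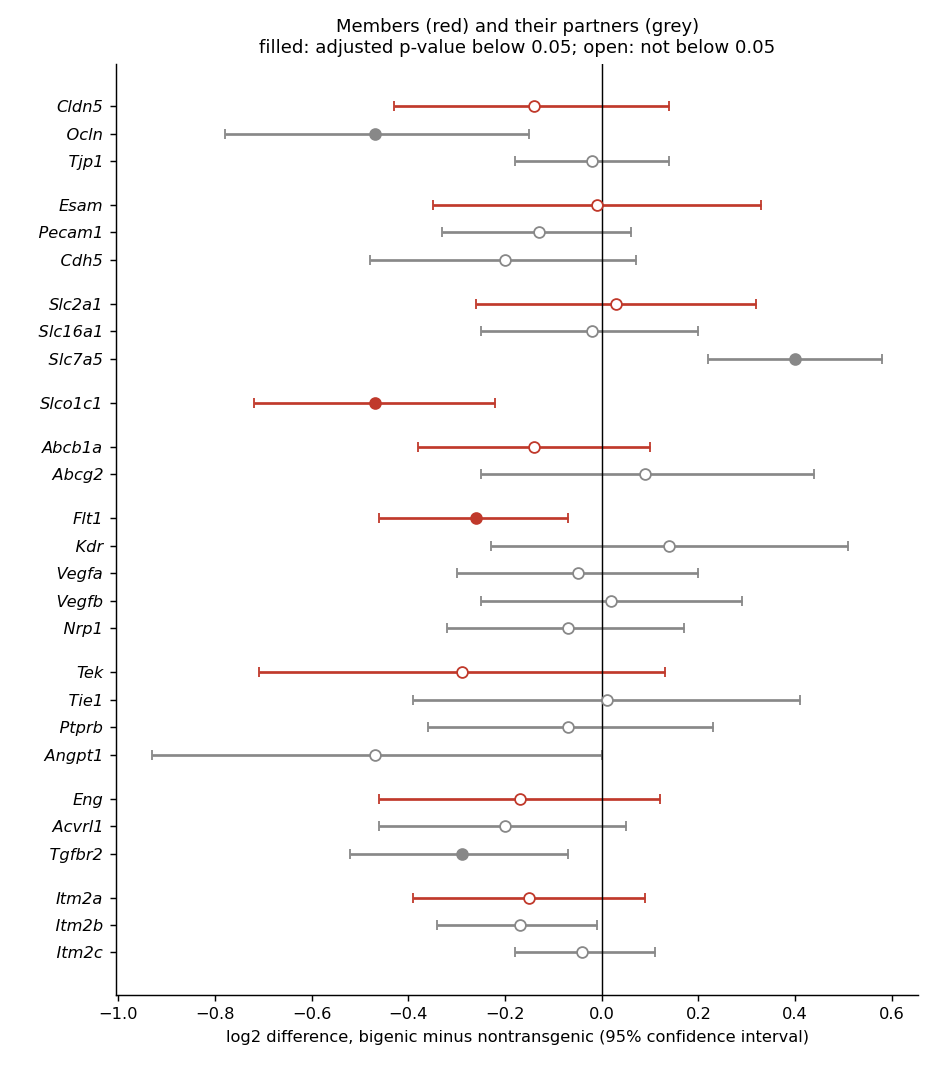
Log2 difference (bigenic minus nontransgenic) with its 95% confidence interval for the 9 measured genes (red) and their partners (grey), each partner under its gene; filled points have a limma adjusted p below 0.05. Slco1c1 (-0.47) and Flt1 (-0.26) are the filled red points, and Slc7a5 (0.40) is the only filled point above 0.

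The 9 genes did not move as a block from mouse to mouse. Relative to the nontransgenic mean of each gene, bigenic mouse 254 ranged from -0.67 for Slco1c1 to 0.31 for Slc2a1 on the log2 scale. Bigenic mice 277 and 283 were below the nontransgenic mean in 8 of 9 genes each, 254 in 7 of 9, with Itm2a nearly at the mean, and 286 in 6 of 9. Among the nontransgenic mice, 250 was the highest of its group in 7 of 9 genes and 278 the lowest in 6 of 9.

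**Figure D3:**
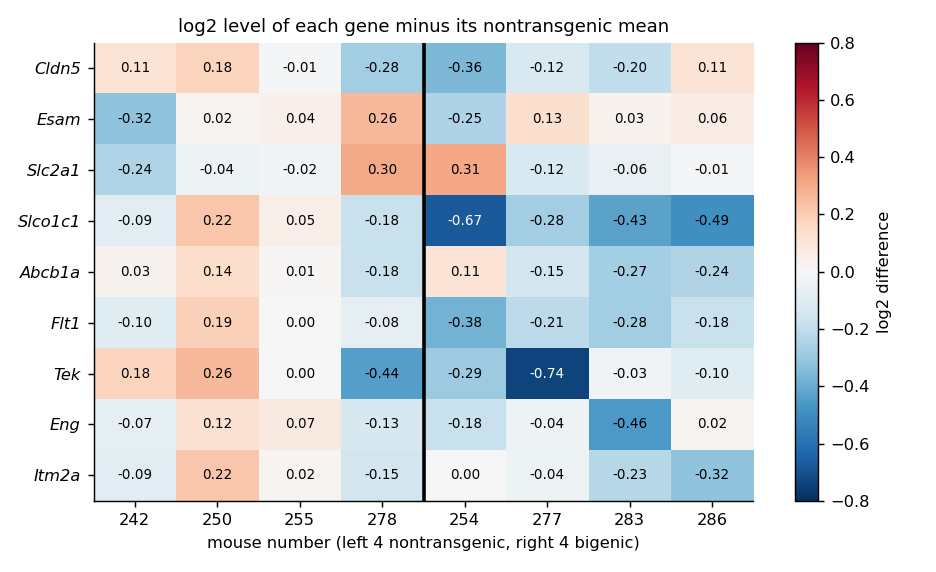
Log2 level of each gene in each mouse minus the mean of the 4 nontransgenic mice for that gene, with the 4 nontransgenic mice left of the black line and the 4 bigenic mice right of it (blue lower, red higher). Slco1c1 and Flt1 are below 0 in all 4 bigenic mice, and Slc2a1 in mouse 254 stands at 0.31.

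After the group means were removed, the correlation of each gene with the mean of the other members over the 8 mice ran from -0.46 for Slc2a1 to 0.84 for Flt1. Slco1c1 was at 0.55, Eng at 0.50, Cldn5 at 0.45, Itm2a at 0.43 and Abcb1a at 0.23, while Tek was at 0.00 and Esam at -0.24. These are descriptions over 8 mice whose values share library depth and scaling. Of all other genes tested, those most like the members' mean by this measure were Cd151 (r = 0.947), Slc37a4 (0.945), Zfp451 (0.927), Zfp536 (0.922) and Gapdh (0.919). Cd151, a tetraspanin found on endothelial and other cells, is the one among them with a known vascular site.

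Levels between genes were compared as normalized counts per kilobase of exon. In nontransgenic mice the order was Itm2a (756.5 ± 87.4), Slc2a1 (635.1 ± 100.3), Slco1c1 (407.1 ± 51.0), Cldn5 (379.6 ± 50.4), Abcb1a (123.1 ± 10.9), Flt1 (114.0 ± 10.7), Tek (97.6 ± 19.5), Eng (65.1 ± 5.2) and Esam (62.6 ± 10.2). Neighbours in this order overlapped between mice except at 3 places, namely Slc2a1 above Slco1c1, Cldn5 above Abcb1a and Tek above Eng. Itm2a, Slc2a1, Slco1c1 and Cldn5 were each above Abcb1a, Esam and the 3 receptors in every mouse. In bigenic mice Cldn5 (343.5 ± 47.1) came before Slco1c1 (294.1 ± 32.0), although the mice still overlapped, and Esam (61.8 ± 6.84) came before Eng (58.3 ± 8.25).

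**Figure D4:**
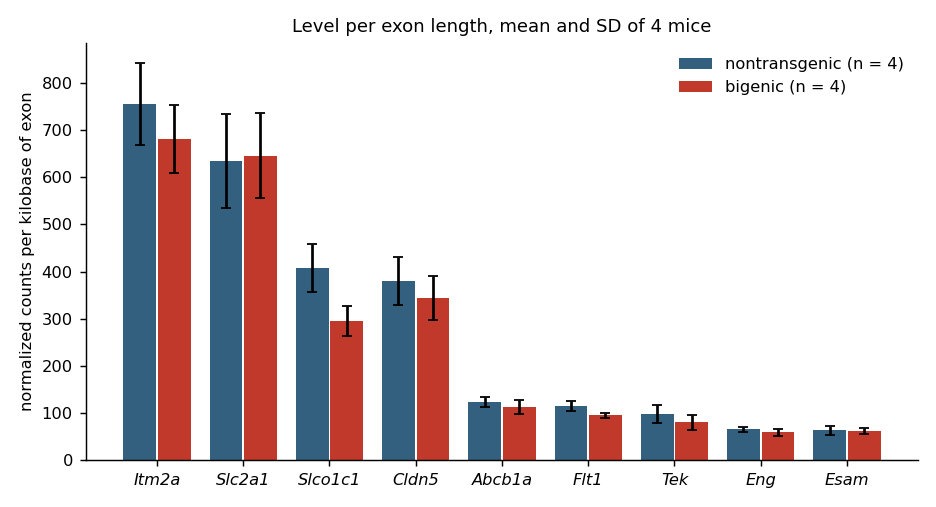
Mean normalized counts per kilobase of exon for the 9 measured genes in nontransgenic (blue) and bigenic (red) mice, with bars for the SD of 4 mice; the vertical axis starts at 0. Itm2a and Slc2a1 are the most abundant per length, and Eng and Esam are the lowest, at 62.6 to 65.1 in nontransgenic mice.

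The other endothelial genes had a median close to that of the members. Of 32 listed, 16 were tested, and 4 were lower and 0 higher in bigenic mice, with a median log2 difference of -0.14, and at an unadjusted p below 0.05 the counts were 5 and 0. The 4 were Ly6a and Ly6e, described above, Podxl (podocalyxin, a sialomucin of the luminal membrane, -0.29, limma adjusted p 0.0294) and Ets1 (an ETS transcription factor, -0.34, limma adjusted p 0.0415). Podxl and Ets1 were named after their values were seen. The count fell to 0 without nontransgenic mouse 250 or 255, to 1 without bigenic mouse 286 and to 2 without 254, 283 or 242. It stayed at 4 without 277 or 278. With 10 RPM required in every mouse, 12 other endothelial genes were tested, with 3 lower and 0 higher.

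Of 16 tight junction genes 9 were tested, with 1 higher, 2 lower and a median of -0.18. Cgn, the junction adaptor cingulin, was higher, at 160, 292, 170 and 159 in bigenic and 110, 91, 103 and 102 in nontransgenic mice. It did not overlap between groups and differed by 0.89 (SE 0.21, limma adjusted p 0.00858). Cgn reached 10 RPM only in bigenic mouse 277, its highest. The lower genes were Ocln and Jam3 (a junctional adhesion molecule, named after its values were seen, -0.28, limma adjusted p 0.0402). The number lower was 0 without 286, 242, 250 or 255, 1 without 283 or 278, and 3 without 254 or 277. With 10 RPM required in every mouse, 6 tight junction genes were tested, with 0 higher and 1 lower.

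Among 29 genes of barrier transport 23 were tested, 7 being higher and 5 lower, with a median of -0.12. Here too the cells of origin in bulk cortex were not resolved. The largest rise was that of Slc7a1, the cationic amino acid carrier CAT1, at 1246 to 1361 counts in bigenic against 768 to 819 in nontransgenic mice (log2 difference 0.74, SE 0.07, limma adjusted p 6.71e-05). The largest fall was that of Slc39a10, a zinc importer found well beyond vessels, at 2087 to 3449 against 6268 to 7883 (-1.28, SE 0.16, limma adjusted p 0.000315). The others that were lower included Slco2b1, described above, Cav2 (caveolin-2, -0.83, limma adjusted p 0.0311) and the taurine carrier gene Slc6a6, and Cav2 and Slc6a6 were named after their values were seen. Without mouse 254, 242, 250 or 255 Cav2 did not pass (adjusted p up to 0.0916). Mfsd2a, the carrier of lipid-bound omega-3 fatty acids that marks barrier endothelium, was named after its values were seen and had 288, 151, 292 and 251 counts against 305, 317, 348 and 370. Its groups did not overlap, but its log2 difference of -0.49 did not pass the limma test (adjusted p 0.0777). Without bigenic mouse 277, the lowest, the log2 difference was -0.27 and passed (adjusted p 0.0467). Leaving out 1 mouse left 5 to 7 higher and 3 to 6 lower, with 3 lower without 254, 242, 250 or 255.

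The endoglin axis and the Wnt pathway of barrier induction held further changes. Of 19 endoglin axis genes 17 were tested, with 2 higher, 6 lower and a median of -0.08. Id2, a target of BMP signalling that neurons and glia also express, was at 1608, 1032, 1850 and 1809 in bigenic and 3231, 2896, 3077 and 2127 in nontransgenic mice (-0.87, SE 0.19, limma adjusted p 0.00738). The ligand gene Tgfb3 rose by 0.74 on the log2 scale (SE 0.17, limma adjusted p 0.0074), and the betaglycan gene Tgfbr3, named after its values were seen, by 0.51 (SE 0.16, limma adjusted p 0.0333, lost without 254, 283, 286, 250, 255 or 278). Without 1 mouse the number lower ran from 1, without 242, to 7, without 277. It was 2 without 250 or 255 and 3 without 254 or 278. The number higher ran from 1 to 3. With 10 RPM required in every mouse, 13 endoglin axis genes were tested, with 0 higher and 4 lower.

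Of 18 barrier Wnt genes 13 were tested, with 4 lower, 0 higher (also 4 and 0 at an unadjusted p below 0.05) and a median of -0.16. Ndp, the ligand norrin, made largely by astrocytes, was at 169, 112, 134 and 151 in bigenic and 259, 276, 229 and 202 in nontransgenic mice (-0.77, SE 0.16, limma adjusted p 0.005). Ctnnb1, β-catenin, Gpr124, the endothelial co-receptor for Wnt7 ligands, and Apcdd1, a Wnt inhibitor, were also lower (-0.62, -0.48 and -0.38, limma adjusted p 0.00881, 0.0479 and 0.0315). Gpr124 passed in 1 of the 8 fits with 1 mouse left out (without 277), Apcdd1 in 3 (without 254, 277 or 278) and Ctnnb1 in all 8. These last 3 genes were named after their values were seen. The number lower was 2 without 283, 286, 242, 250 or 255 and at most 5, without 277. Ndp and Gpr124 reached 10 RPM in nontransgenic mice only. With 10 RPM required in every mouse, 7 barrier Wnt genes were tested, with 2 lower and 0 higher. Of 11 genes of endothelial activation 3 were tested and 1 was lower, Ptgs2, cyclooxygenase-2, which cortical neurons also make (-1.10, SE 0.16, limma adjusted p 0.000796).

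Markers of other cell types moved as well, in several directions. Mural cells, the pericytes and smooth muscle cells around these vessels, had 9 of 15 genes tested, 0 called (1 lower at an unadjusted p below 0.05) and a median of -0.09, with summed levels of 4090 to 4472 normalized counts in bigenic and 4186 to 5152 in nontransgenic mice. Fibroblast and meningeal genes had 1 of 7 lower (Fmod, fibromodulin) and summed levels of 4859 to 6945 against 6054 to 8616. Astrocyte genes had 5 of 9 lower (Aqp4, Gja1, Slc1a2, Aldh1l1 and Glul) and 0 higher, summing to 135472 to 162987 against 172876 to 188360. Microglial genes had 5 of 9 lower (Cx3cr1, P2ry12, Csf1r, Tmem119 and C1qa), with sums of 5268 to 6873 against 7057 to 8321. Neuronal genes had 6 of 10 lower, Camk2a most, and 1, Rbfox3, higher (133016 to 176566 against 184724 to 201677). Oligodendrocyte genes had 1 of 8 higher (Mobp) and 0 lower (64872 to 84123 against 63903 to 80035). Apart from Fmod, Aqp4, P2ry12, Camk2a, Rbfox3 and Mobp, these marker genes were named after their values were seen. Without 1 mouse the number lower was 3 to 6 for astrocyte genes (3 without 254, 242, 250, 255 or 278), 4 to 7 for microglial genes and 2 to 6 for neuronal genes (2 or 3 without any mouse but 277). The oligodendrocyte list had 0 higher without 254, 242, 250 or 255 and 2 without 283, and the neuronal list 0 higher without 286, 242 or 250. The fibroblast and meningeal list had 0 lower without 254, 283, 242 or 250 and 2 without 277 or 278. With 10 RPM required in every mouse, 3 genes of that list were tested, with 0 lower. The part of these cell types in the members' differences was not tested.

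Choroid plexus genes differed most, with 5 of 7 tested higher and 0 lower. The 5 were Ttr, F5, Clic6, Kl and Prlr, the last 4 named after their values were seen. With 10 RPM required in every mouse, 2 were tested and 1, Ttr, was higher. The summed level of the 7 genes was 14426 to 29678 in bigenic against 6828 to 8360 in nontransgenic mice. Ttr, transthyretin, the thyroxine carrier secreted by the choroid plexus, was at 18520, 7741, 16795 and 11356 against 801, 236, 835 and 1023 (log2 difference 4.34, SE 0.44, limma adjusted p 0.000109). Choroid plexus also makes Slco1c1 and cingulin, and its part in their differences was not tested. Red blood cell genes were not among the genes tested (0 of 6). The summed level of the 9 members was 6572 to 7121 in bigenic and 7179 to 8396 in nontransgenic mice.

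**Figure D5:**
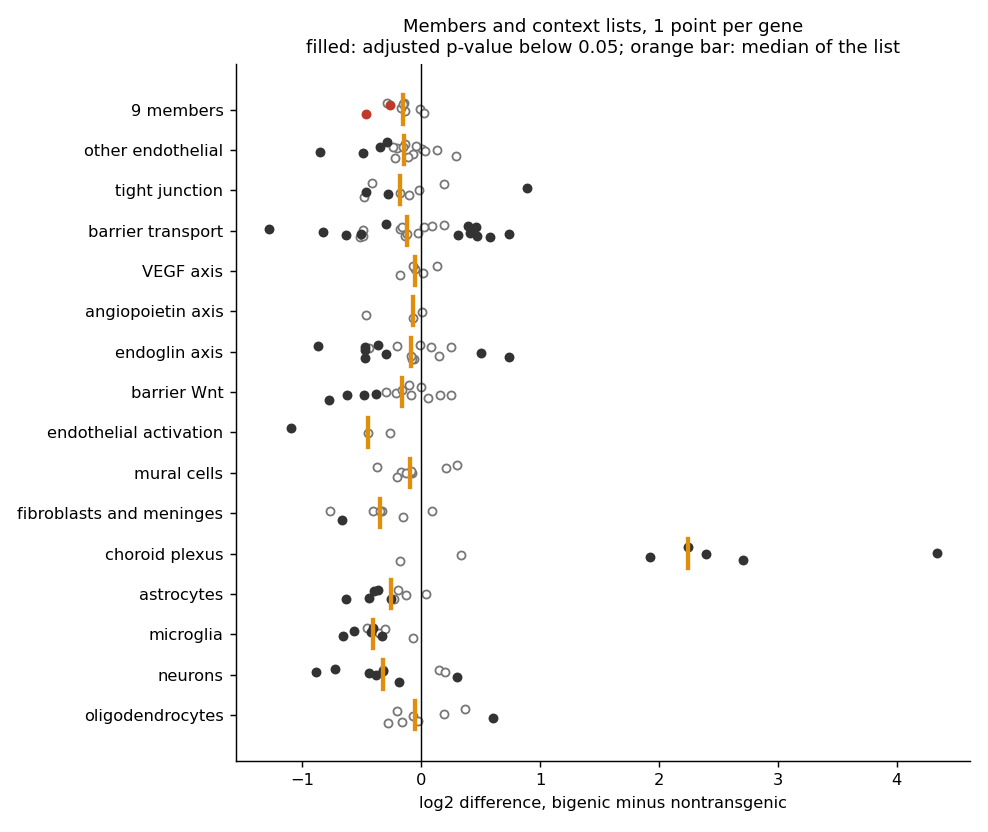
Log2 difference (bigenic minus nontransgenic) of each tested gene, in rows for the members (red when filled) and for lists of related genes and other cell types; filled points have a limma adjusted p below 0.05 and orange bars mark the median of a list. The members' median is -0.15, that of other endothelial genes -0.14, of mural genes -0.09 and of choroid plexus genes 2.25.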

How the data were processed

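Right cortex of 4 bigenic and 4 nontransgenic mice (separate animals) was sequenced as 50-base single reads. Per the labels and the study's methods, the authors trimmed adapters with cutadapt, mapped to mm9 with Bowtie 0.12.7, kept unique mappings, counted exons with bedtools and merged them into genes. The authors deposited a signal per transcript (28662) and mouse, in whole numbers that are scaled rather than raw (called normalized counts), and a DESeq2 table of 10601 genes. That table also gives the authors' fold changes, p-values and q-values, which were not used; it supplied symbols, and all 10601 transcripts were joined. The library kit is described as stranded, while use of strand in counting is not given in the sources used here.

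A filter of 10 RPM, relative to the total of a column and met by 1 mouse or more, left 10588 genes. A gene can pass this filter only through the group where it is higher. Groups were compared with limma 3.58.1 (lmFit, eBayes with trend; R 4.3.3) on log2(normalized count + 1), with Benjamini-Hochberg adjustment over all genes and a threshold of 0.05. The design had foreseen a count test had the table held raw counts. This scale understates the change of low genes. For Ly6a the log2 difference was -0.85, against -0.856 with a pseudocount of 0.1. Reads per mouse were estimated from missing or doubled whole numbers, a procedure tested on simulated columns (8 of 8 recovered within 2%). All intervals are 95% confidence intervals of the difference between groups, with a width that depends on the spread between mice. They do not give the range of single mice. Columns carry mouse numbers that are not the replicate numbers of the labels, so each is assigned to a group only.

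The members and all lists were chosen with earlier results of these data known. Genes named are the 10 members, their direct partners and the largest called rise and fall in each list. The 5 genes most like the members' mean are also named. Any other gene, Tardbp included, is said to be named after its values were seen. An item covered by this rule is not reported here. Positions are from GENCODE vM1 on NCBIM37 (mm9), promoters from RefSeq, and windows of 50 bases were matched to the genome. Overlapping exons of a gene were merged into blocks before they were counted. Alternatives were pseudocounts of 10 and 0.1, no filter, a filter in every mouse, 3 scalings (equal totals, median of ratios, quantiles), array weights, a threshold of 0.01 and leaving out each mouse; leaving out mice 277 and 278 together was chosen after seeing the data. Tables were handled with pandas 2.3.3, scipy 1.17.1 and numpy 2.4.6 under Python 3.11.15.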

Additional observations from a re-analysis of the deposited data

Results flagged for a closer look

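In 6 of 106 groups of 4 mice (53 named genes, in 2 groups each) 1 mouse stood apart from the other 3 by Dixon's criterion, which chance meets in about 1 of 20 groups. None of these was a member. The scaffold gene Tjp1 was at 4198 normalized counts in nontransgenic mouse 278 and 3721 to 3743 in the others of its group. Itm2b was at 12055 in bigenic mouse 277 against 13995 to 14381, and at 15926 in nontransgenic mouse 242 against 15029 to 15152. Cgn was at 292 in bigenic mouse 277 against 159 to 170. Its log2 difference also passed the limma test without that mouse. Cgn reached 10 RPM only in mouse 277, so without that mouse it would not have been among the genes tested. Tgfb3 was at 224 in nontransgenic mouse 278 against 177 to 185. Apcdd1 was at 346 in bigenic mouse 254 against 279 to 288.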

How the results depend on the processing

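Slco1c1 kept its direction and its call under all 17 alternatives to the limma fit at 0.05, with adjusted p between 3e-05 and 0.0342, and Flt1 under 10 of 17. The number of members lower in bigenic mice was 1 with no filter on low values (Flt1 adjusted p 0.0582), 1 at an adjusted p below 0.01 (where Slco1c1 remained), 4 with array weights (Abcb1a and Itm2a added, adjusted p 0.00481 and 0.00277), and 1 to 2 with 1 mouse left out; 0 were higher in every fit. Array weights gave mouse 277 a weight of 0.084 and mouse 286 one of 3.059. The number of all genes called was 6455 with array weights and 2057 at 0.01, against 3796, and 2654 to 4817 with 1 mouse left out. Of 151 recomputed member values 131 kept direction and side of the threshold, 7 lost the call (all Flt1), 3 gained it and 10 changed sign, all of the latter near 0. Of 737 values for 44 other genes these counts were 623, 78, 8 and 28. The cause of these changes was not tested.

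Signs changed for these log2 differences. With median-of-ratios scaling they were -0.016 (Slc2a1), -0.025 (Vegfb) and -0.033 (Tie1), and with quantile normalization 0.011 (Esam), -0.033 (Slc2a1), -0.016 (Vegfb) and 0.059 (Itm2c). With array weights they were 0.039 (Esam), -0.069 (Kdr), 0.052 (Nrp1), -0.236 (Tie1), -0.175 (Abcg2) and 0.038 (Tjp1), and without mice 277 and 278 they were 0.031 (Esam), -0.081 (Kdr), -0.115 (Tie1), -0.013 (Abcg2) and 0.030 (Tjp1). With 1 mouse left out the ranges were -0.118 to 0.076 (Esam), -0.065 to 0.127 (Slc2a1), -0.145 to 0.042 (Vegfa), -0.042 to 0.113 (Vegfb), -0.146 to 0.003 (Nrp1), -0.077 to 0.141 (Tie1), -0.188 to 0.039 (Ptprb), -0.019 to 0.223 (Abcg2), -0.082 to 0.035 (Slc16a1) and -0.039 to 0.023 (Tjp1).

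No paired analysis was possible because the columns carry mouse numbers and not the replicate numbers of the labels. Depth limits Esam and Eng most, the members with the fewest reads.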
